A study of Mus musculus with 22 samples.

Results

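ATP-binding cassette (ABC) transporters and the carriers of organic ions and peptides were followed in the adult mouse choroid plexus (ChP), the epithelium that separates blood from cerebrospinal fluid. The members are the protein-coding genes whose symbols begin with Abca, Abcb, Abcc, Abcd, Abcg, Slco, Slc22a, Slc47a or Slc15a, followed by a number for the ABC genes, with Slco1c1 and Slco1a5 left out. This gave 90 members of 33984 genes in the files, of which 20897 are protein-coding. They are 16 Abca, 10 Abcb, 10 Abcc, 4 Abcd, 6 Abcg, 12 Slco, 25 Slc22a, 2 Slc47a and 5 Slc15a genes. The rule uses symbols and no measured value, although it was set with earlier results of these data known.

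ABC proteins use ATP to move substrates across a membrane. The Abcb, Abcc and Abcg families hold the classic drug exporters, most Abca proteins move lipids, and most Abcd proteins serve the peroxisome. Slco, Slc22a and Slc47a carriers move organic anions and cations, drugs and bile acids among them, and Slc15a carriers move small peptides with protons. In the ChP, uptake carriers on the fluid side and exporters on the blood side together clear organic anions, drugs and peptides from cerebrospinal fluid.

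RNA was sequenced from 14 pools of ChP, 2 pools, A and B, for each of 7 groups. In the first model, 3-month-old Otx2 lox/lox mice received Cre-Tat, a cell-permeable recombinase, or vehicle into the lateral ventricles, and ChP of the lateral (LV) and of the fourth ventricle (4V) was dissected apart 15 days later, from 5 mice in a pool labelled Cre-Tat and 4 in a pool labelled vehicle. LV and 4V pools of a treatment thus came from the same mice, and the sources used here do not say that a letter marks the same mice in both. All 4 of these groups carry the lox/lox alleles and an S129 label, and no promoter limits Cre-Tat to a cell type. In the second model, with a B6D2 label, 4V ChP came from mice labelled wildtype, Otx2 (+/-), a constitutive GFP allele, and Otx2 (+/AA), an allele given here only by its label. The study pooled 4 Otx2 (+/-) and 5 wildtype littermates in duplicate samples. OTX2 is a homeodomain transcription factor made by the ChP epithelium, and these groups ask how transporter transcripts differ where the label says that Otx2 was lowered. The models were sequenced in separate runs, so model, strain label and run cannot be told apart. Males and females were mixed, and p-values measure only the spread between these pools, which may be technical.

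The authors deposited read counts per transcript, and each gene is represented here by its transcript with the most counts. Total counts were 22750019 to 50088408 per pool, and the members held 0.247% to 0.325% of the counts on genes. Values are counts scaled to the library total (CPM) after TMM normalisation over all pools, called normalised CPM below, and a count of 0 allows up to 0.12 to 0.277 of these units in a pool, for counting error only. Otx2 itself, over its whole transcript, ran at 386 to 470 in vehicle pools and 303 to 361 in wildtype pools, and at 1025 to 1236 in Cre-Tat pools and 886 to 1027 in Otx2 (+/-) pools. These counts go against the labels, and the study assessed the knockdown on exon 2, which counts per transcript do not separate, so pools are named by their labels only. The lowest pool of transthyretin (Ttr), the defining ChP epithelium marker, had 61117 of these units, and none of the 9 markers of this epithelium was near the 3-count limit.

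Sequence upstream of 5 members is shown because 4 of them moved with an Otx2 label below and lie side by side or carry a motif, and Abca13 had the largest change with Cre-Tat. These are the bases before the RefSeq start on GRCm38.p6, at most 250, and bases that GENCODE places inside the gene were left out. Capitals mark TAATCC or its reverse complement GGATTA, the core bound by OTX2-type homeodomains.
Abca13: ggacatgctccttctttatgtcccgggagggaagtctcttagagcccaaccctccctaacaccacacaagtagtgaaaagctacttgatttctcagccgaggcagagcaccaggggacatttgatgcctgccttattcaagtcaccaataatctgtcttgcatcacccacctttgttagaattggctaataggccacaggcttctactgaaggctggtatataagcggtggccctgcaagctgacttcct
Abca4: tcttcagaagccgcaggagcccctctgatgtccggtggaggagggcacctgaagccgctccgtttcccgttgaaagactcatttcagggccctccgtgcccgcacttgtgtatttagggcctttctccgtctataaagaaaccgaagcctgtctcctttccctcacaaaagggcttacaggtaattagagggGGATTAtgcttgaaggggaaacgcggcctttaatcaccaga
Abca9: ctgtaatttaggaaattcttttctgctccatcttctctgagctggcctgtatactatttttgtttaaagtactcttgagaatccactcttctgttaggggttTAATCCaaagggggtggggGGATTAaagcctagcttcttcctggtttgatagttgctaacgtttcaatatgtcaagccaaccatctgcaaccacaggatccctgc
Abca8a: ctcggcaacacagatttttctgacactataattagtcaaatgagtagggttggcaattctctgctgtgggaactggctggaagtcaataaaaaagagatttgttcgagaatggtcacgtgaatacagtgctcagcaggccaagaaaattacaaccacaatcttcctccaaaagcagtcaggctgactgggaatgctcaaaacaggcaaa
Abca8b: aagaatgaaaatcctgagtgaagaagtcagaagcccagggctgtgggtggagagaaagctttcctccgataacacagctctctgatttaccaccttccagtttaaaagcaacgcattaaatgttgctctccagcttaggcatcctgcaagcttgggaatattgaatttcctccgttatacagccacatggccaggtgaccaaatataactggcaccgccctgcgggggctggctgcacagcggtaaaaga
The stretches are chr11:9191692-9191941 on the plus strand for Abca13, chr3:122044210-122044442 on the plus strand for Abca4, and on the minus strand chr11:110168197-110168403 for Abca9, chr11:110095979-110096187 for Abca8a and chr11:109995846-109996095 for Abca8b. Abca9 carries the motif at 2 places, the farther one 148 bases before its RefSeq start, and Abca4 at 58 bases. In the full 250 bases, searched on both strands, 6 of the 81 RefSeq entries of members hold the motif (7.407%), against 2054 of 32851 entries overall (6.252%), and 71 members had an entry. The other members with the motif are Abcb1b, Slc15a4, Slc22a6 and Slco4a1. A match of letters is a description and shows no binding.

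Levels were compared between members per kilobase of transcript. Slc22a17, the receptor for the iron-carrier protein lipocalin 2, stood first, with a mean level of 217.71 normalised CPM per kilobase over the 14 pools. Its 8 pools of the conditional model ranged from 532 to 808 normalised CPM and the 6 pools of the second model from 215 to 300 (283 and 300 in wildtype), so these ranges did not overlap. Abca4, the retinal flippase known from photoreceptors, came next with a mean level of 66.7, followed by Slco1a4 (39.1), an organic anion carrier of brain barriers. Next were the lysosomal lipid transporter Abca2 (32.7), the peroxisomal fatty acid importer Abcd3 (29.3), and Abca1 (23.5), which loads cholesterol onto apolipoproteins. From Abca4 to Abca1, each member overlapped its neighbours in this order, whereas every pool of Slc22a17 lay above every pool of every other member.

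Lower in the order were Abca5 (15.8), the blood-side anion exporter Abcc4 (13.1), the breast cancer resistance protein Abcg2 (11.4), Abca8a (10.3) and Abcc1 (10.1), which exports glutathione conjugates. Each of these members overlapped the next one named in its pools. They were followed by the carnitine carrier Slc22a5 (9.12), mitochondrial Abcb8 (8.91) and Abca9 (8.55). In all, 12 members had a mean level above 10 and 37 above 1. Slc22a8, the organic anion uptake carrier OAT3 of the fluid side of the ChP, had a mean level of 7.69, and Slc15a2, which recovers peptides from the fluid, 4.11. Abcb1a, the P-glycoprotein of brain capillaries, had a mean level of 1.84. Its close copy Abcb1b did not reach 1, and 17% and 18.3% of the 50-base words of these transcripts are shared with another gene, so reads may be divided between them.

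**Figure D1:**
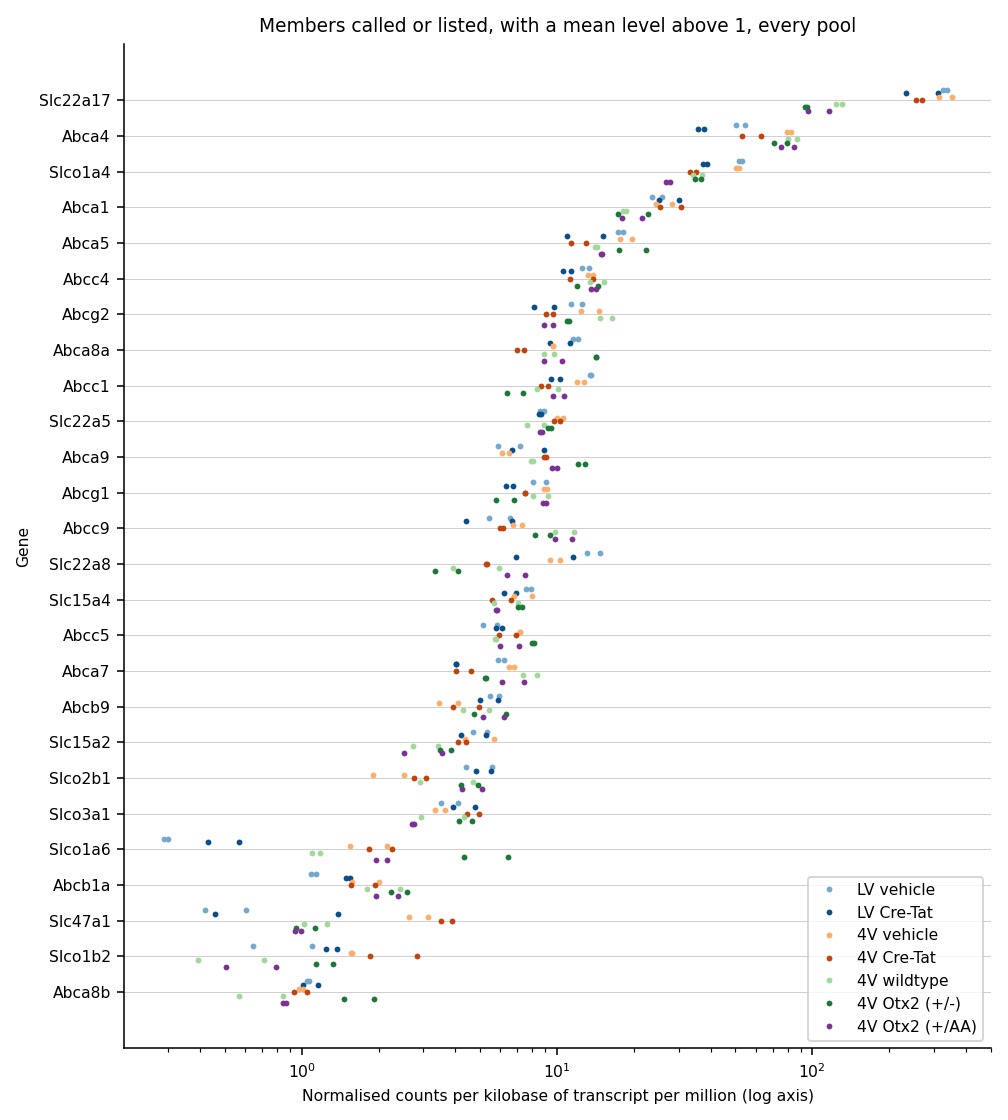
Level of 26 members with a mean above 1 that passed in a comparison or are listed barrier transporters, in normalised CPM per kilobase of transcript on a log axis, with 1 point for each of the 14 pools, coloured by group. Slc22a17 is highest, with mean level 217.71, and its pools of the second model lie apart at lower values.

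Of the 90 members, 57 could be tested in at least 1 comparison. The other 33 were too low in every comparison, with 0 counts in all pools for Slc22a16, Slc22a7 and Slc22a30, 1 to 30 counts in total for 26 members, and 36 to 65 for Abcc8, Slco5a1, Slc22a12 and Abcg3. At least 1 of the 7 comparisons of 2 groups was passed by 17 members. Tests used edgeR's quasi-likelihood fit over all genes with Benjamini-Hochberg adjustment and a threshold of 0.05.

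In LV ChP, 1 of 55 members tested passed, and Abca13 was that gene. Among all genes the share that passed was 3.24%, with 2.21% higher and 1.03% lower. Abca13 (chromosome 11, 9191942 to 9684259) encodes one of the largest ABC proteins, with a less well defined function. It had 3.34 and 3.93 normalised CPM in vehicle pools A and B and 15.4 and 10.6 in Cre-Tat pools. The Cre-Tat pools were higher without overlap, 3.59-fold on the fitted scale (log2 fold change 1.84, standard error 0.24, adjusted p = 0.000715 by edgeR's quasi-likelihood test). This call held with each pool left out.

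The other members of LV ChP did not pass by edgeR. DESeq2 called 3 members, all of the Abca family. An unadjusted edgeR p under 0.05 was found for 10 of the 55, of which 1 was higher and the others lower. Slc22a8 had 50.7 and 45.0 in vehicle and 23.9 and 39.9 in Cre-Tat pools, a log2 fold change of -0.59 that did not pass (adjusted p = 0.187 by the same edgeR test), and its Cre-Tat pools differed more from each other than its vehicle pools. The phospholipid transporter Abca7 had 39.2 and 41.4 in vehicle and 26.9 and 26.9 in Cre-Tat pools, without overlap, but did not pass either (log2 fold change -0.58, edgeR adjusted p = 0.0653). Slc22a6, the related carrier OAT1, had 1.62 and 0.10 in vehicle and 0 and 2.66 in Cre-Tat pools, so that pools of 1 group spanned its whole range. The median log2 fold change was -0.08 over the members tested and 0.00 over all genes. The number of members that passed was 2 without Cre-Tat Pool A and 3 without Cre-Tat Pool B.

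Markers of other cells moved in the same LV pools. Summed over 8 macrophage markers, the level was 59.3 to 66.2 in vehicle and 96.6 to 105 in Cre-Tat pools, with 2 of 8 passing. Over 6 lymphocyte markers it was 5.73 to 6.91 and 14.3 to 21.4. Both markers tested, Cd3g and Ptprc, passed, and Ptprc is also expressed by other leukocytes, macrophages among them. The 5 ependymal markers summed to 137 to 148 and 213 to 268, and 2 of the 4 tested passed. Of the 9 epithelial markers, Aqp1, Htr2c, Kcne2 and Kcnj13 passed as lower by edgeR, Otx2 as higher, and Ttr did not pass. DESeq2 called 7 of the 9. The sum over the 7 other than Ttr and Otx2 was 7249 to 7814 in vehicle and 4886 to 4963 in Cre-Tat pools. Over all 9 it was 185280 to 193700 and 100790 to 140530, and Ttr made up 93.9% to 95.9% of this sum. Col1a2 (1 of 8 fibroblast markers tested), Aqp4 (1 of 4 astrocyte markers) and Snap25 (1 of 4 neuronal markers) passed as higher. Pdgfra of the fibroblast and Aldh1l1 of the astrocyte markers passed as lower. The fibroblast list summed to 594.82 to 628.28 in vehicle and 563.81 to 578.21 in Cre-Tat pools. The astrocyte list summed to 72.368 to 74.036 and 63.328 to 70.052. These 2 sums were thus lower in Cre-Tat pools, although 5 of the 8 and 3 of the 4 log2 fold changes were positive. The neuronal sum was higher, at 17.721 to 17.756 and 20.965 to 23.372. None of these markers was at or below the 3-count limit throughout. In bulk tissue, fewer cells of a type and less RNA per cell cannot be told apart, and the part of these markers in the Abca13 result was not tested.

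4V ChP of the same model had 10 of 54 members past the threshold, 3 higher and 7 lower in Cre-Tat pools, which is 18.5% of the members tested beside 10.7% of all genes. Of all genes, 5.7% were higher and 4.98% lower. The 7 lower members included exporters of the blood-fluid barrier, anion uptake carriers and 3 lipid transporters, and each fell by less than 50% on the fitted scale. The median log2 fold change was -0.10 over the members tested and 0.01 over all genes.

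The lower carriers were 1 of 10 Slc22a members tested, Slc22a8, and 1 of 7 Slco members, Slco1a4. The other 6 Slco members had positive log2 fold changes, with a median of 0.43 over the 7, and 0 passed as higher by edgeR or DESeq2, 3 of them with an unadjusted p under 0.05. Slc22a8 (chromosome 19, 8591254 to 8611835) had 35.3 and 32.4 normalised CPM in vehicle and 18.3 and 18.1 in Cre-Tat pools. Both Cre-Tat pools lay well below both vehicle pools, by 46.1% (log2 fold change -0.89, standard error 0.15, adjusted p = 0.00069 by edgeR's test). Slco1a4 (chromosome 6, 141805440 to 141856199) had 197 and 193 in vehicle and 134 and 127 in Cre-Tat pools. Its pools did not overlap either, with a log2 fold change of -0.57 (standard error 0.13, edgeR adjusted p = 0.00831), and 2.73% of its 50-base words occur in other Slco1a genes. The neighbouring family members left out by the rule gave log2 fold changes of -0.57 for the thyroid hormone carrier Slco1c1 (edgeR adjusted p = 0.0212) and -0.25 for Slco1a5, which did not pass (edgeR adjusted p = 0.337).

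Of the drug exporter families, 1 of 5 Abcg, 1 of 6 Abcc and 0 of 7 Abcb members passed by edgeR, both calls lower, and DESeq2 called 0 of the Abcb members, 1 of which had an unadjusted p under 0.05. Abcg2 (chromosome 6, 58584523 to 58695676) had 37.2 and 31.7 in vehicle and 24.8 and 23.1 in Cre-Tat pools. Its groups did not overlap, and the log2 fold change was -0.52 (standard error 0.15, edgeR adjusted p = 0.0317). Abcc1 (chromosome 16, 14361558 to 14475737) had 81.6 and 86.4 in vehicle and 58.8 and 62.5 in Cre-Tat pools, again without overlap, with a log2 fold change of -0.47 (standard error 0.13, edgeR adjusted p = 0.0271). Abcc4, which like Abcc1 exports anions, had 75.7 and 78.9 in vehicle and 64.2 and 78.8 in Cre-Tat pools. These groups overlapped, and the log2 fold change of -0.11 did not pass (edgeR adjusted p = 0.719). Abcb1a was close to even, with 7.85 and 10.1 in vehicle and 9.66 and 7.81 in Cre-Tat pools.

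Lipid transporters moved in both directions. Abca13 had 2.96 and 3.97 in vehicle and 21.8 and 21.3 in Cre-Tat pools, 6.27-fold higher on the fitted scale (log2 fold change 2.65, standard error 0.21, edgeR adjusted p = 1.23e-07). No other member rose as much in any of the comparisons of Cre-Tat with vehicle. Abca9 (chromosome 11, 110100749 to 110168196), a gene of less well known function, had 38.7 and 41.5 in vehicle and 56.8 and 57.6 in Cre-Tat pools, with a log2 fold change of 0.52 (standard error 0.13, edgeR adjusted p = 0.0166). Abca4 (chromosome 3, 122044443 to 122180123) had 597 and 577 in vehicle and 384 and 456 in Cre-Tat pools, with a log2 fold change of -0.48 (standard error 0.15, edgeR adjusted p = 0.0439). Neither gene's groups overlapped.

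The lysosomal lipid transporter Abca5 (chromosome 11, 110269369 to 110337716) had 145 and 161 in vehicle and 93.4 and 107 in Cre-Tat pools, with a log2 fold change of -0.61 (standard error 0.13, edgeR adjusted p = 0.00648). Abca7 (chromosome 10, 79996494 to 80015572), a phospholipid transporter known for its part in phagocytosis, had 43.6 and 45.4 in vehicle and 27.0 and 30.8 in Cre-Tat pools, with a log2 fold change of -0.62 (standard error 0.14, edgeR adjusted p = 0.00708). Both genes were lower in Cre-Tat pools without overlap. The cholesterol exporter Abca1 had 251 and 290 in vehicle and 260 and 314 in Cre-Tat pools, which overlap. Slc22a23 (chromosome 13, 34179158 to 34345182), a carrier without a well known substrate, had 4.22 and 2.68 in vehicle and 5.97 and 6.70 in Cre-Tat pools, with a log2 fold change of 0.86 (standard error 0.27, edgeR adjusted p = 0.0489).

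The calls of Abca13, Slc22a8 and Abca7 held with each pool left out, but only 5 members passed without vehicle Pool A and 5 without vehicle Pool B. Without vehicle Pool A, Abca4, Abca9, Abcc1, Abcg2 and Slco1a4 no longer passed (edgeR adjusted p = 0.0961 to 0.379), and without vehicle Pool B, Abca4, Abca5, Abca9, Abcc1 and Slc22a23 did not (edgeR adjusted p = 0.074 to 0.323). Without Cre-Tat Pool A, Abca4 and Abcc1 did not pass (edgeR adjusted p = 0.0753 to 0.184), and without Cre-Tat Pool B, Abcg2 and Slc22a23 did not (edgeR adjusted p = 0.0915 to 0.113). Scaling by total counts, which moved the median of all genes by 0.141, gave 6 higher and 3 lower members, and Abca4, Abcc1, Abcg2 and Slco1a4 no longer passed. Abcg2 and Slc22a23 did not pass with DESeq2, Abca4 and Abca9 did not with summed transcripts, and none of these 4 did with all groups of the run in 1 fit, where 6 members passed. In the same pools, the 8 epithelial markers other than Otx2 all passed as lower, and the 7 of them other than Ttr summed to 7084 to 7157 in vehicle and 3694 to 3965 in Cre-Tat pools. Macrophage markers summed to 43.0 to 44.7 and 65.2 to 89.1 (5 of 7 tested passed as higher). Lymphocyte markers summed to 4.43 to 4.67 and 13.6 to 15.4 (1 of 2, Ptprc), and ependymal markers to 131 to 163 and 266 to 278 (2 of 4). The fibroblast marker Col1a2, the astrocyte markers Aqp4 and Gfap and the endothelial marker Plvap also passed as higher. The fibroblast marker Pdgfra, the astrocyte marker Aldh1l1 and the neuronal marker Syt1 passed as lower. Plvap was 1 of 8 endothelial markers tested, of which 5 had positive and 3 negative log2 fold changes. The endothelial sums of 146 to 166 in vehicle and 143 to 172 in Cre-Tat pools overlapped. Syt1 was 1 of 3 neuronal markers tested, and the neuronal list summed to 12.2 to 22.9 and 10.5 to 11.5. Col1a2 had 39.4 and 51.0 in vehicle and 131 and 136 in Cre-Tat pools. Of the 8 fibroblast markers, however, 4 had positive and 4 negative log2 fold changes. They summed to 506.6 to 527.7 in vehicle and 447.0 to 501.4 in Cre-Tat pools. The 4 astrocyte markers summed to 107.45 to 123.87 in vehicle and 94.4 to 98.6 in Cre-Tat pools. Both sums were lower in Cre-Tat pools without overlap. The part of these markers in the transporter results was not tested.

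**Figure D2:**
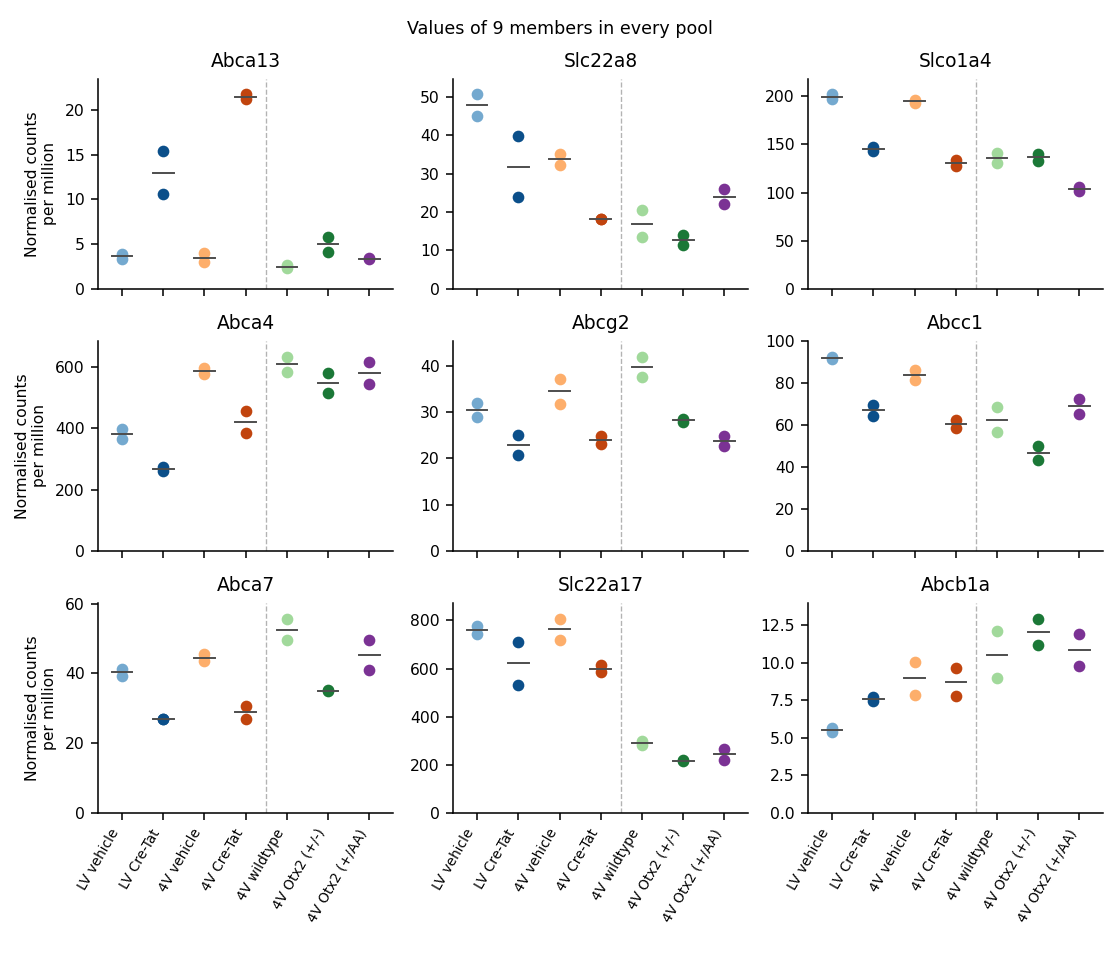
Values of 9 members in every pool, in normalised CPM on axes that start at 0, with a bar for the mean of the 2 pools and a dashed line between the conditional model on the left and the other model on the right. Abca13 is high in the Cre-Tat pools (10.6 to 21.8), and Slc22a17 is lower in the second model. Slc22a8, Slco1a4, Abca4, Abcg2, Abcc1 and Abca7 passed as lower in 4V Cre-Tat pools. They also lie lower in LV Cre-Tat pools but did not pass there.

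Whether the difference between Cre-Tat and vehicle pools itself differed between the ventricles was tested over 8 pools. By edgeR 0 of 57 members passed, 1 had an unadjusted p under 0.05, and DESeq2 called 0, beside 0.00642% of all genes by edgeR. The member with the small unadjusted p was Abca13, with a difference of log2 fold changes (LV minus 4V) of -0.80 and a standard error of 0.33 (edgeR adjusted p = 1.00). Slc22a8 had a difference of 0.31 with a standard error of 0.28. With the mice as a block, taken as shared by pools of 1 letter, 0 members passed as well, and Abca13 stood at -0.82 with a standard error of 0.31 (edgeR adjusted p = 1.0). Hence the greater number of members called in 4V is not shown to be a difference between the ventricles.

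In the second model, 5 of 54 members tested passed between Otx2 (+/-) and wildtype pools, 4 higher and 1 lower, which is 9.26% beside 3.53% of all genes. Of all genes, 1.78% were higher and 1.75% lower. Slco1a6 (chromosome 6, 142085761 to 142208521), an organic anion carrier of the Slco1a cluster, had 3.08 and 3.32 normalised CPM in wildtype and 18.1 and 12.2 in Otx2 (+/-) pools. It was 4.74-fold higher without overlap (log2 fold change 2.25, standard error 0.24, adjusted p = 0.00181 by edgeR's test). Of the members that passed here it changed most, and 5.6% of its 50-base words occur in other genes, Slco1a5 among them. Slco1a5 had 24.95 and 28.2 in wildtype and 19.6 and 22.6 in Otx2 (+/-) pools and did not pass (edgeR adjusted p = 0.262).

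The other 3 higher members lie next to each other on chromosome 11 and share the minus strand. Abca8b (109932190 to 109995845) had 6.26 and 4.22 in wildtype and 14.2 and 10.9 in Otx2 (+/-) pools, with a log2 fold change of 1.26 (standard error 0.23, edgeR adjusted p = 0.0231). Abca8a (110025634 to 110095978) had 54.5 and 50.0 in wildtype and 79.9 and 80.3 in Otx2 (+/-) pools, with a log2 fold change of 0.62 (standard error 0.11, edgeR adjusted p = 0.0199). Both are relatives of human ABCA8, a cholesterol exporter, and their groups did not overlap. Abca9 had 50.5 and 51.4 in wildtype and 82.2 and 77.5 in Otx2 (+/-) pools, with a log2 fold change of 0.65 (standard error 0.11, edgeR adjusted p = 0.0158). Further along, Abca6 had 4.65 and 5.01 in wildtype and 5.50 and 6.17 in Otx2 (+/-) pools (edgeR adjusted p = 0.522), and Abca5 had 116 and 118 in wildtype and 183 and 144 in Otx2 (+/-) pools (edgeR adjusted p = 0.107). Neither passed, although the groups of both were apart. Abca8a and Abca8b share 1.89% and 1.42% of their 50-base words with each other.

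**Figure D3:**
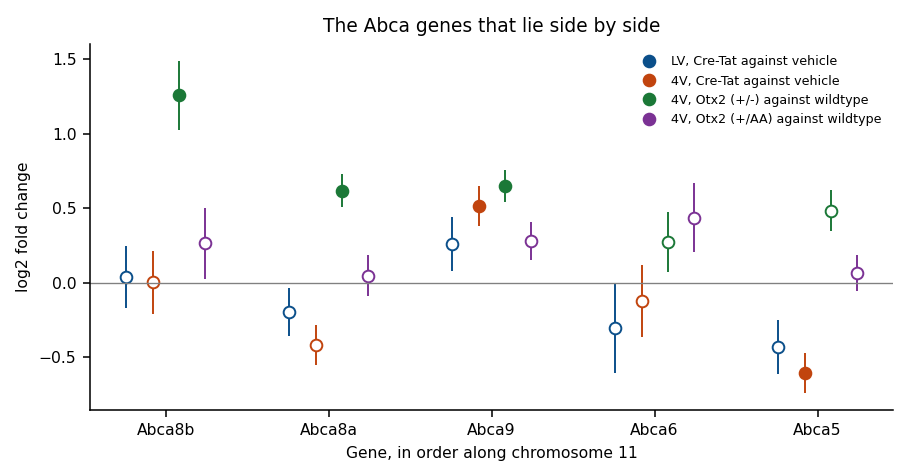
Log2 fold change with its standard error for the 5 Abca genes that lie side by side, in their order along chromosome 11, in each of 4 comparisons, with filled points past the threshold. Abca8b, Abca8a and Abca9 passed as higher in Otx2 (+/-) pools, while in 4V Cre-Tat pools Abca9 passed as higher and Abca5 as lower.

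Abca7 was the lower member, with 55.7 and 49.4 in wildtype and 34.9 and 35.3 in Otx2 (+/-) pools. The groups were well apart, with a log2 fold change of -0.58 (standard error 0.12, edgeR adjusted p = 0.0339). Drug exporters did not pass. Abcg2 had 37.6 and 42.0 in wildtype and 28.5 and 27.9 in Otx2 (+/-) pools (log2 fold change -0.49, edgeR adjusted p = 0.0713), and Abcc1 had 68.5 and 56.6 in wildtype and 50.1 and 43.2 in Otx2 (+/-) pools (edgeR adjusted p = 0.145). Abca13 had 2.61 and 2.36 in wildtype and 5.81 and 4.11 in Otx2 (+/-) pools, without overlap, but did not pass (log2 fold change 1.00, edgeR adjusted p = 0.0891). Slco1a4 had 130 and 141 in wildtype and 133 and 140 in Otx2 (+/-) pools, the same range.

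With each pool left out, Abca9 and Slco1a6 always passed. Without Otx2 (+/-) Pool A, 3 members passed, and Abca7 and Abca8b were lost (edgeR adjusted p = 0.0682 to 0.0683), while 8 passed without wildtype Pool A, where Abca7 was lost (edgeR adjusted p = 0.127), and Abca8a was lost without wildtype Pool B (edgeR adjusted p = 0.0717). Summed transcripts ended the call of Abca7. Fibroblast markers summed to 740 to 815 in wildtype, 1023 to 1121 in Otx2 (+/-) and 664 to 788 in Otx2 (+/AA) pools, and Col1a2 and Col3a1 of the 8 passed as higher in Otx2 (+/-). Of the 9 epithelial markers, Ttr and Folr1 passed as lower and Otx2 as higher, while Kcne2 and Clic6 also had positive log2 fold changes. Ttr had 147830 and 139110 in wildtype and 76415 and 89895 in Otx2 (+/-) pools, and the 7 markers other than Ttr and Otx2 summed to 6863 to 7247 and 5892 to 6405. The astrocyte marker Aqp4 (1 of 4 tested), with 12.37 and 12.43 in wildtype and 35.9 and 47.0 in Otx2 (+/-) pools, and the macrophage marker Mrc1 (1 of 7 tested) passed as higher. The 4 astrocyte markers summed to 146 to 160 in wildtype and 141 to 203 in Otx2 (+/-) pools, which overlap. The 8 macrophage markers summed to 82.9 to 84.0 and 86.8 to 95.4, with 4 positive and 3 negative log2 fold changes among the 7 tested. None of these markers was at or below the 3-count limit throughout, and their part in the transporter results was not tested.

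Between Otx2 (+/AA) and wildtype pools, 1 of 54 members tested passed, 1.85% beside 0.345% of all genes, with 0.172% in each direction, and 0 members passed as higher by edgeR or by DESeq2, 3 of them with an unadjusted p under 0.05. The gene that passed was Abcg2, with 37.6 and 42.0 normalised CPM in wildtype and 24.8 and 22.6 in Otx2 (+/AA) pools. It was lower by 40.8% without overlap (log2 fold change -0.76, standard error 0.14, adjusted p = 0.0427 by edgeR's test). The call was lost without Otx2 (+/AA) Pool A (edgeR adjusted p = 0.0715) or Pool B (edgeR adjusted p = 0.0845), and also with total counts, with summed transcripts or with all groups of the run in the fit. Slco1a6 had 5.49 and 6.10 in Otx2 (+/AA) pools against 3.08 and 3.32 in wildtype, and did not pass (log2 fold change 0.85, edgeR adjusted p = 0.189). Of the ChP epithelium markers 0 of 9 passed by edgeR, 3 had an unadjusted p under 0.05, and DESeq2 called 1.

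Otx2 (+/-) and Otx2 (+/AA) pools were also set against each other, and 4 of 54 members passed, 3 higher and 1 lower in Otx2 (+/-), which is 7.41% beside 2.7% of all genes, with 1.37% higher and 1.33% lower. This comparison shares the Otx2 (+/-) pools with the one above. Slco1a6, at 18.1 and 12.2 against 5.49 and 6.10, was higher (log2 fold change 1.39, standard error 0.22, edgeR adjusted p = 0.0051). Abca8b, at 14.2 and 10.9 against 6.28 and 6.42, was higher as well (log2 fold change 0.99, standard error 0.20, edgeR adjusted p = 0.019). The groups of both genes were apart. Slco3a1 (chromosome 7, 74275419 to 74554780), a carrier of prostaglandins, had 19.0 and 21.3 in Otx2 (+/-) against 12.7 and 12.4 in Otx2 (+/AA) pools (log2 fold change 0.69, standard error 0.16, edgeR adjusted p = 0.0449). Slc22a8 had 14.1 and 11.5 against 22.0 and 25.9, with wildtype at 13.5 and 20.4, which overlaps Otx2 (+/-), and was lower in Otx2 (+/-) (log2 fold change -0.90, standard error 0.17, edgeR adjusted p = 0.0162). Abca8b was lost without Otx2 (+/-) Pool A (edgeR adjusted p = 0.0847), and Slco3a1 without Otx2 (+/-) Pool B (edgeR adjusted p = 0.0981) or Otx2 (+/AA) Pool B (edgeR adjusted p = 0.0649). Total counts gave 2 higher and 3 lower members without Slco3a1, which also did not pass without a filter, and with all groups of the run in 1 fit Slc22a8 and Slco3a1 did not pass.

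**Figure D4:**
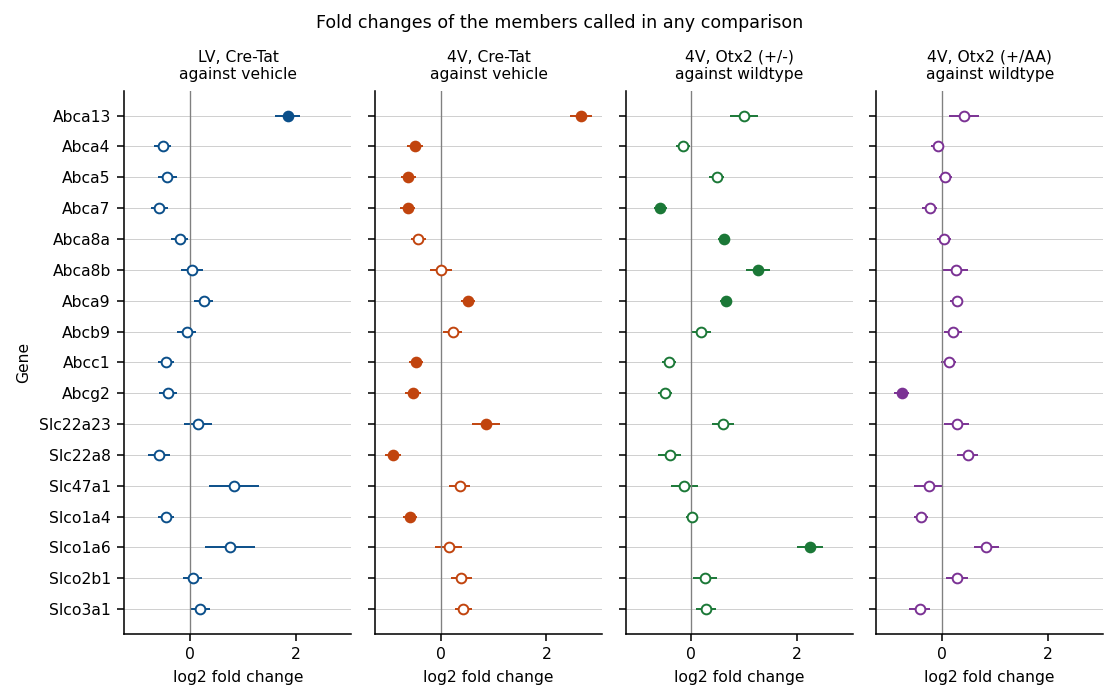
Log2 fold change with its standard error for the 17 members that passed in any comparison, in the 4 comparisons of a labelled Otx2 change with its control, with filled points past the threshold of 0.05. Abca13 stands out in Cre-Tat pools at 1.84 and 2.65, and Slco1a6 in Otx2 (+/-) pools at 2.25.

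The 4V fold changes of both models were compared by an interaction over 8 pools, in which model and run cannot be told apart. Of 55 members tested 4 passed, 7.27% beside 1.64% of all genes. Of the 4 members, 1 had the more positive and 3 the more negative fold change in the conditional model, beside 0.783% and 0.861% of all genes. Abca13 had the more positive fold change in the conditional model, by 1.64 on the log2 scale (standard error 0.33, edgeR adjusted p = 0.0245), with its own values of 2.65 and 1.00. The fold change of Slco1a6 was lower there by -2.10 (standard error 0.36, edgeR adjusted p = 0.0113), and its 4V pools were at 4.37 and 6.09 in vehicle and 5.16 and 6.35 in Cre-Tat pools. Abca5 (-1.11, standard error 0.20, edgeR adjusted p = 0.0147) and Abca8a (-1.05, standard error 0.16, edgeR adjusted p = 0.00565) also differed. Abca8a had 54.1 and 54.0 in 4V vehicle and 41.6 and 39.1 in 4V Cre-Tat pools, the opposite direction to its rise in Otx2 (+/-) pools, although this fold change of -0.42 did not pass by itself (edgeR adjusted p = 0.0531). Abca8b (-1.27) did not pass (edgeR adjusted p = 0.0686). The call of Abca8a held with each of the 8 pools left out, whereas that of Abca13 was lost without any of 7 pools, all but Otx2 (+/-) Pool A (edgeR adjusted p = 0.0528 to 0.14). Abca5 was lost without either vehicle or either wildtype pool (edgeR adjusted p = 0.051 to 0.0861), and Slco1a6 without vehicle Pool B (edgeR adjusted p = 0.0787). Summed transcripts ended the calls of Abca13 and Slco1a6.

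LV and 4V ChP differed in transporters under vehicle, with 6 of 55 members past the threshold, 3 higher and 3 lower in LV, which is 10.9% beside 7.44% of all genes. Of all genes, 3.46% were higher and 3.98% lower. Under Cre-Tat, 6 of 54 members passed, 2 higher and 4 lower in LV, 11.1% beside 5.87% of all genes, with 2.98% higher and 2.89% lower. These comparisons share no pool with each other. LV and 4V ChP came from the same mice, but a letter is not stated to mark the same mice in both. In a fit blocked on the letter, 11 members passed under vehicle, all 6 among them. Under Cre-Tat 8 passed, and Abca4 did not (edgeR adjusted p = 0.084). Under vehicle this block raised the calls over all genes as well, as given below, so these counts are not a result about the members.

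The largest contrasts were for a cation exporter and an anion carrier that were scarce in LV. Slc47a1 (chromosome 11, 61343401 to 61378345), the proton-coupled cation exporter MATE1, had 1.82 and 1.24 normalised CPM in LV and 9.33 and 7.85 in 4V vehicle pools, and 1.37 and 4.13 in LV and 11.6 and 10.5 in 4V Cre-Tat pools. Its LV pools were lower in both (log2 fold change -2.49, standard error 0.28, edgeR adjusted p = 0.000132 under vehicle, and -2.02, standard error 0.34, edgeR adjusted p = 0.000877 under Cre-Tat). Slco1a6 had 0.812 and 0.846 in LV and 4.37 and 6.09 in 4V vehicle pools, and 1.20 and 1.61 in LV and 5.16 and 6.35 in 4V Cre-Tat pools. Again every LV pool lay below every 4V pool, with log2 fold changes of -2.64 (standard error 0.35, edgeR adjusted p = 0.00051) and -2.04 (standard error 0.31, edgeR adjusted p = 0.000461). Abca4 had 366 and 397 in LV and 597 and 577 in 4V vehicle pools, and 259.4 and 275 in LV and 384 and 456 in 4V Cre-Tat pools, lower in LV by log2 fold changes of -0.63 (standard error 0.12, edgeR adjusted p = 0.00587) and -0.65 (standard error 0.19, edgeR adjusted p = 0.045).

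Slco2b1 and Slc22a8 passed as higher in LV, whereas of the Slco members tested 1 passed in each direction under both labels. Slco2b1 (chromosome 7, 99657804 to 99711340), a carrier of steroid conjugates, had 24.3 and 19.3 in LV and 10.97 and 8.31 in 4V vehicle pools, and 24.01 and 21.1 in LV and 11.997 and 13.4 in 4V Cre-Tat pools. It was higher in LV by log2 fold changes of 1.17 (standard error 0.19, edgeR adjusted p = 0.0021) and 0.83 (standard error 0.19, edgeR adjusted p = 0.0121), and 10.8% of its transcript overlaps the gene Gm15635. Slc22a8 was higher in LV under vehicle, at 50.7 and 45.0 against 35.3 and 32.4 (log2 fold change 0.50, standard error 0.13, edgeR adjusted p = 0.0358), and under Cre-Tat, at 23.9 and 39.9 against 18.3 and 18.1 (log2 fold change 0.81, standard error 0.22, edgeR adjusted p = 0.0344). The lysosomal peptide transporter Abcb9 (chromosome 5, 124061530 to 124095798) was higher in LV under vehicle, at 21.7 and 20.04 against 15.04 and 12.6 (log2 fold change 0.58, standard error 0.16, edgeR adjusted p = 0.0398). Under Cre-Tat, Abca13 passed as lower in LV, at 15.4 and 10.6 against 21.8 and 21.3 (log2 fold change -0.72, standard error 0.20, edgeR adjusted p = 0.0423), and the test of that difference between treatments did not pass, as given above.

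**Figure D5:**
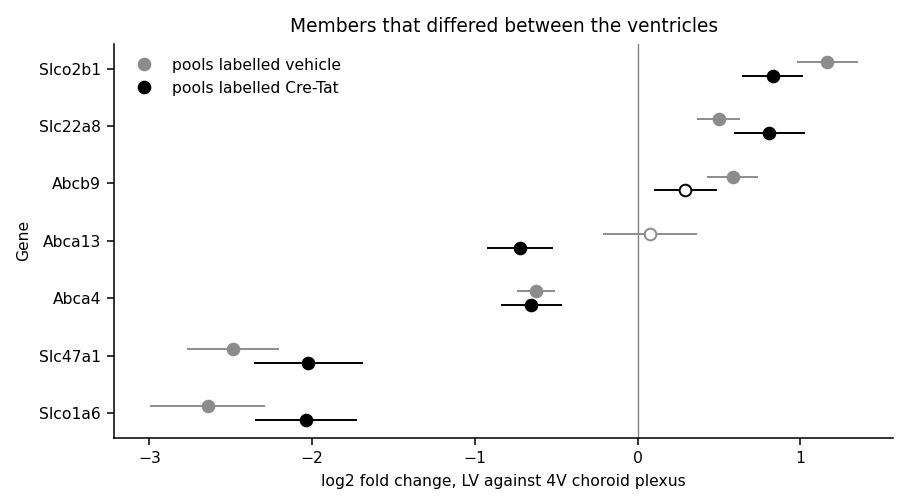
Log2 fold change of LV against 4V ChP with its standard error for the 7 members that passed in vehicle or Cre-Tat pools, with filled points past the threshold. Slco1a6 and Slc47a1 lie at -2.64 to -2.02 and Slco2b1 at 0.83 to 1.17 under both labels.

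Slc47a1 and Slco1a6 passed between the ventricles with each pool left out, under both labels. The log2 fold change of Slc47a1 under Cre-Tat moved from -2.02 to -1.40 without LV Pool A and to -3.01 without LV Pool B. Abcb9 and Slc22a8 under vehicle were lost without LV Pool A (edgeR adjusted p = 0.0732 to 0.118), 4V Pool A (edgeR adjusted p = 0.0547 to 0.0794) or 4V Pool B (edgeR adjusted p = 0.234 to 0.261), and with DESeq2, total counts, summed transcripts or all groups of the run in 1 fit. Under Cre-Tat, Abca13 and Slc22a8 were lost without LV Pool B (edgeR adjusted p = 0.202 to 0.303), Abca13, Abca4, Slc22a8 and Slco2b1 without 4V Pool A (edgeR adjusted p = 0.0548 to 0.0908), Abca4 without LV Pool A (edgeR adjusted p = 0.082), and Abca13, Abca4 and Slc22a8 without 4V Pool B (edgeR adjusted p = 0.0987 to 0.504), where 3 members passed. Summed transcripts ended the calls of Abca13 and Slc22a8, DESeq2 that of Abca13, and DESeq2 size factors that of Abca4. Total counts, which moved the median of all genes by -0.191 and -0.167, gave 1 higher and 6 lower members under vehicle and 3 higher and 10 lower under Cre-Tat. Endothelial markers summed to 218 to 260 in LV and 146 to 166 in 4V vehicle pools and to 255.6 to 289 and 143 to 172 in Cre-Tat pools, with 3 and 4 of 8 passing as higher in LV and none at or below the 3-count limit throughout. Their part in the transporter results was not tested.

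Barrier transporters that passed in none of the 7 comparisons of 2 groups are given by their range over the 14 pools. The nucleotide exporter Abcc5 ran from 29.8 to 47.4 normalised CPM, with 33.5 and 33.3 in wildtype and 47.4 and 46.4 in Otx2 (+/-) pools. These groups were apart and the test fell just short of the threshold (log2 fold change 0.49, standard error 0.11, edgeR adjusted p = 0.0539). The cholesterol exporter Abcg1 ran from 33.6 to 53.9, with 46.8 and 53.9 in wildtype and 33.6 and 39.5 in Otx2 (+/-) pools, lower without overlap but not past the threshold (log2 fold change -0.46, edgeR adjusted p = 0.109).

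Slco1b2, known as an anion carrier of liver, ran from 1.29 to 9.37. In LV it had 3.63 and 2.14 under vehicle and 4.54 and 4.13 under Cre-Tat, against 5.19 and 5.17, and 6.13 and 9.37, in 4V. In the fits blocked on the letter it passed as lower in LV (edgeR adjusted p = 0.0359 under vehicle and 0.0305 under Cre-Tat). It had 2.35 and 1.29 in wildtype and 4.39 and 3.75 in Otx2 (+/-) pools and did not pass (log2 fold change 1.15, standard error 0.32, edgeR adjusted p = 0.102). Abcc9, a subunit of potassium channels in mural cells, ran from 27.3 to 45.2 in the conditional model and from 50.7 to 72.7 in the second. The models were thus apart, as were their mural markers, which summed to 206 to 317 and 482 to 521. Endothelial (143 to 289 and 366 to 456), fibroblast (447 to 628 and 664 to 1121), astrocyte and oligodendrocyte sums were apart as well. Epithelial, macrophage, lymphocyte, ependymal and neuronal sums overlapped between the models. The part of these markers in the Abcc9 values was not tested. The prostaglandin carrier Slco2a1 stayed at 0.667 to 2.35 and Abcb1b at 0.413 to 1.93. Slc22a5 (23.3 to 32.4), Slc15a2 (10.03 to 22.6) and the lysosomal peptide carrier Slc15a4 (15.2 to 21.8) had log2 fold changes of -0.27 to 0.31 in these comparisons.

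Genes that work with the transporters were described from lists set beside the members. Of 7 ABC genes outside the naming rule, such as the peptide transporters of antigen loading Tap1 and Tap2, 6 were tested and 0 passed in any comparison by edgeR or DESeq2, with 1 at an unadjusted p under 0.05 in each comparison of the ventricles and 0 elsewhere. Of 14 receptors and sensors that control transporter genes, 11 were tested in 4V Cre-Tat against vehicle and 1 passed, 9.09% beside 10.7% of all genes. It was Nfe2l2, the oxidative stress factor, which was higher, with 66.9 and 79.2 in vehicle and 101 and 107 in Cre-Tat pools (log2 fold change 0.52, edgeR adjusted p = 0.0192). In LV against 4V vehicle pools, 2 of 11 tested passed, 18.2% beside 7.44% of all genes. The bile acid receptor Nr1h4 (1.06) and its partner Rxra (0.46) were higher in LV by log2 fold change (edgeR adjusted p = 0.0354 and 0.0373).

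Among 6 scaffold proteins, 1 of 5 tested passed in 4V Cre-Tat against vehicle, 20% beside 10.7% of all genes. It was ezrin (Ezr), which ties membrane proteins to actin, with 665 and 680 in 4V vehicle and 1004 and 970 in 4V Cre-Tat pools (log2 fold change 0.56, edgeR adjusted p = 0.0214). The related Slc9a3r1, an anchor of apical carriers, passed as lower in LV against 4V under vehicle (-0.75) and under Cre-Tat (-0.83, edgeR adjusted p = 0.00382 and 0.00839). Slc9a3r2 passed as higher under Cre-Tat (0.75, edgeR adjusted p = 0.0446). Of the 5 tested, 20% thus passed under vehicle and 40% under Cre-Tat, beside 7.44% and 5.87% of all genes.

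Of 14 drug metabolism enzymes 13 were tested. In 4V Cre-Tat against vehicle and in Otx2 (+/-) against wildtype 3 passed each, 23.1% beside 10.7% and 3.53% of all genes. Between Otx2 (+/-) and Otx2 (+/AA) pools 1 passed, 7.69% beside 2.7% of all genes. Between LV and 4V, 3 passed under vehicle and 2 under Cre-Tat, 23.1% and 15.4% beside 7.44% and 5.87% of all genes. Nqo1, a quinone reductase, was lower in 4V Cre-Tat pools, with 75.7 and 72.7 in vehicle and 52.1 and 49.4 in Cre-Tat pools (log2 fold change -0.54, edgeR adjusted p = 0.0115), and in Otx2 (+/-) pools, with 73.0 and 75.3 in wildtype and 46.9 and 43.5 in Otx2 (+/-) pools (log2 fold change -0.71, edgeR adjusted p = 0.0114). The glutathione transferases Gstm1 (0.97) and Gstt1 (0.73) were higher in 4V Cre-Tat pools (edgeR adjusted p = 0.0108 and 0.0131). Ugt1a6a (1.13) and Ugt1a7c (1.03), glucuronidation enzymes that share exons, were higher in Otx2 (+/-) pools (edgeR adjusted p = 0.00467 and 0.00673). Nqo1 was also lower in Otx2 (+/-) than in Otx2 (+/AA) pools (-0.73, edgeR adjusted p = 0.0126). In LV against 4V, Gstt1 (0.69), Mgst1 (0.56) and Ugt1a7c (0.62) were higher under vehicle (edgeR adjusted p = 0.0264, 0.0137 and 0.0358). There, 12 of the 13 had positive log2 fold changes, with a median of 0.33 beside 0.01 over all genes. Ugt1a6a (0.93) and Ugt1a7c (0.88) were higher under Cre-Tat (edgeR adjusted p = 0.00738 and 0.00869). LV Cre-Tat against vehicle and Otx2 (+/AA) against wildtype each had 0 of the 13 past the threshold by edgeR, with 3 and 4 at an unadjusted p under 0.05 and 1 called by DESeq2 in each.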

How the data were processed

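RNA-seq counts of 14 pools were used. The authors deposited 22 files of whole-number read counts per Ensembl transcript, without normalization. The submitters' processing notes name bcl2fastq 1.8.4, Bowtie 0.12.9, SAMtools, HTSeq 0.5.3, DESeq 1.8.3 and mm10. The labels give rRNA depletion, the methods PolyA+ selection, and the counting strand is not given in the sources used here.

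For 14 of the 16 files of the conditional model, the name holds another library number than the sample has to which the file is attached. Files were joined to pools by library number. Paired so, runs of a pool differed by 1.002 to 1.032 times the degrees of freedom of a chi-square test, against 13.2 to 20.5 as attached, and the 2 runs of each pool were summed.

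Of 95533 transcripts, 82807 matched GENCODE vM21 on GRCm38, and they held 89.5% of the counts. The design was written for gene counts, so each gene took its transcript with the most counts. edgeR 4.0.16 in R 4.3.3 used filterByExpr, TMM and the quasi-likelihood test, on the groups compared only, and p-values were adjusted after Benjamini and Hochberg across the whole table. LV and 4V pools come from the same mice per the methods, and same-letter pools correlated at 0.089 (vehicle) and 0.028 (Cre-Tat) in their deviations. An exact permutation test of 2 against 2 pools cannot pass 0.05. The share of all genes whose groups were apart was not counted, so a lack of overlap is a description of the pools only. Alternatives were DESeq2 1.42.0, its size factors, total counts, other filters, summed transcripts, all groups of a run, a replicate block (by letter, and by mice, the latter added after seeing the data), files as attached and each pool left out. Figures were drawn with Matplotlib 3.10.9 from tables made in pandas 2.3.3 and NumPy 2.4.6 (Python 3.11.15), and the fits were tested on simulated data.

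Members named are those past the threshold in any comparison, the 15 with the highest level and a list of transporters known in the ChP or brain barriers. One of these is not reported here. A few others were named after their values were seen. The members and lists were chosen with earlier results of these data known.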

Additional observations from a re-analysis of the deposited data

Results flagged for a closer look

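In 4V ChP, 4 members had fold changes that differed between the models by the interaction test, as given above. The difference, conditional minus second model, was 1.64 for Abca13, -1.11 for Abca5, -1.05 for Abca8a and -2.10 for Slco1a6 on the log2 scale (edgeR adjusted p = 0.0245, 0.0147, 0.00565 and 0.0113), and 1.64% of all genes passed the same test. Model, strain label and sequencing run cannot be told apart.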

How the results depend on the processing

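With 2 pools a group, precision rests on 4 or 8 pools, and members at few counts were not tested. Of 37 calls, 14 held under every alternative on these pools and 0 changed sign there. The numbers of members called moved as follows, and the cause was not tested. In LV Cre-Tat against vehicle, 1 became 3 with DESeq2 and 3 without a filter, and 2 with all groups of the run, while in 4V 10 became 6 with all groups of the run. In Otx2 (+/AA) against wildtype, 1 became 0 with total counts, summed transcripts or all groups of the run. Under Cre-Tat, the 6 of LV against 4V became 13 with total counts and 10 without a filter, and the 4 of the model interaction became 2 with summed transcripts.

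Leaving out each pool gave 1 to 3 members in LV Cre-Tat, 5 to 10 in 4V Cre-Tat, 3 to 8 in Otx2 (+/-), 0 to 2 in Otx2 (+/AA), 3 to 6 between these alleles, 4 to 9 between ventricles under vehicle, 3 to 8 under Cre-Tat, 0 in the ventricle interaction and 1 to 5 in the model interaction. Where this leaves 1 pool in a group, the lone pool is assumed to vary like the others.

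LV and 4V pools of a treatment come from the same mice, and other groups share only a letter. Deviations of same-letter pools correlated at -0.139 to 0.348. With the letter as a replicate block, 17 members passed in Otx2 (+/-), 3 in Otx2 (+/AA), 7 between these alleles, 11 between ventricles under vehicle, 8 in the model interaction and 15 in 4V Cre-Tat. A block by mice in the ventricle interaction, added after seeing the data, gave 0 members and 6 of all genes for 1. The letter block ended 1 call, that of Abca4 between ventricles under Cre-Tat. Over all genes the block gave 3114 calls for 1554 in 4V Cre-Tat, 2539 for 515 in Otx2 (+/-), 549 for 50 in Otx2 (+/AA), 2288 for 1083 between ventricles under vehicle and 1048 for 252 in the model interaction. Without a filter there were 874 for 486 in LV Cre-Tat, 390 for 50 in Otx2 (+/AA), 1840 for 1083 and 1351 for 887 between ventricles (vehicle, Cre-Tat) and 627 for 252 in the model interaction. For Otx2 (+/AA), DESeq2 called 122, summed transcripts 22 and all groups of the run 18. Total counts gave 1533 for 887 between ventricles under Cre-Tat, summed transcripts 248 for 393 between the alleles and 166 for 252 in the model interaction, and all groups of the run 717 for 1083 between ventricles under vehicle.

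With files as attached, 29, 37, 15, 17, 19 and 23 members passed in the Cre-Tat (LV, 4V), between-ventricle (vehicle, Cre-Tat) and interaction (ventricle, model) tests, and 4688 to 8742 of all genes, where runs of a pool differ far beyond counting noise. There, log2 fold changes reversed to -0.48, -1.03, 0.42 and -2.04 for Abca13 (LV and 4V Cre-Tat, LV against 4V under Cre-Tat, model interaction), and in 4V Cre-Tat to -0.23 for Abca9, 0.18 for Abcc1, 0.0047 for Abcg2, -0.49 for Slc22a23, 0.88 for Slc22a8 and 0.19 for Slco1a4. Between ventricles, Slc22a8 reversed to -0.23 under Cre-Tat and Slc47a1 to 0.16 under vehicle.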

Other observations

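Some members outside every call differed between the pools of a single group. Abca3, a lipid transporter of lamellar bodies, had 25.2 and 56.1 normalised CPM in Otx2 (+/AA) pools, while the other 12 pools ranged from 45.9 to 68.1, and 14.1% of its transcript overlaps the gene D330041H03Rik. Slc22a19, an anion carrier, had 0.963 and 0.185 in 4V vehicle pools, the second below the 0.277 that a count of 0 allows in that pool. Abcg5, which with Abcg8 exports sterols, had 1.36 and 0.563 in wildtype pools and ranged from 0.563 to 1.92 in the second model and from 2.72 to 6.16 in the conditional model. These values were not tested.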
